A study of Mus musculus with 29 samples.

Results

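Interferon-inducible GTPases were followed through livers of obese male mice as 9 genes, the guanylate-binding proteins Gbp2, Gbp3, Gbp6 and Gbp7 and the immunity-related GTPases Igtp, Irgm1, Irgm2, Iigp1 and Tgtp1. Their rows were taken by Ensembl identifier from 54532 rows of a gene count table, and all 9 were among the 15603 genes with enough counts to test. The genes were chosen by name with earlier results of these same libraries known. Which result led to the choice is not stated, so every K556R minus WT difference is treated as used and is given as a description. The study asks what SUMO attachment to Prox1, a homeobox protein that controls transcription in hepatocytes, does in liver. SUMO is a small ubiquitin-like modifier joined to lysines. In the K556R knock-in, which is conditional and restricted to hepatocytes, an arginine replaces the acceptor lysine. The males ate chow until 8 weeks of age, when Cre recombination switched on the allele, and then a diet with 45% fat and 20% fructose for 18 weeks. Livers were taken fasted or refed between ZT 15 and 17, hours counted from lights on. Of the 29 libraries, 14 are wild-type (WT), 8 fasted and 6 refed, and 15 are K556R, 7 fasted and 8 refed. Batch 1 holds 4 fasted WT, 3 refed WT, 4 fasted K556R and 4 refed K556R livers, and batch 2 holds 4, 3, 3 and 4 in that order. Titles call the K556R libraries Cre and the WT libraries Ctrl. Whether WT mice received Cre, how Cre was delivered and which promoter drove it are not given in the sources used here, so Cre exposure and the allele cannot be told apart from these labels. The labels do not state that replicates come from different animals, so a p-value here reflects only how the libraries scatter, which may be technical.

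Both families are induced by interferons, mainly interferon gamma but also type I interferon, and act inside the infected cell. Interferon gamma acts mainly through promoter sequences called GAS elements, whereas type I interferon also acts through ISRE elements. Immunity-related GTPases with regulatory roles (Irgm1, Irgm2, and Igtp, also called Irgm3) sit on the membranes of host organelles, lipid droplets among them, and keep the effector GTPases Iigp1 (Irga6) and Tgtp1 (Irgb6) from attacking them. The effectors and the guanylate-binding proteins load onto vacuoles that hold pathogens, with help from the autophagy conjugation machinery.

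The genes lie in a few clusters of mm10. Gbp7 (ENSMUSG00000040253, chr3:142530342-142550149), Gbp3 (ENSMUSG00000028268, chr3:142560026-142573209) and Gbp2 (ENSMUSG00000028270, chr3:142620602-142638008) follow each other on the plus strand of chromosome 3. Gbp6 (ENSMUSG00000104713) is on the minus strand of chromosome 5 at chr5:105270702-105293698. On chromosome 11 the minus strand carries Irgm1 (ENSMUSG00000046879, chr11:48861968-48871683) and Tgtp1 (ENSMUSG00000078922, chr11:48985327-48994172). Igtp (ENSMUSG00000078853, chr11:58199556-58207591) overlaps the annotated span of Irgm2 (ENSMUSG00000069874, chr11:58199618-58222782) on the same strand over 7974 bases. Some reads of these genes cannot be assigned with certainty. The longest Tgtp1 transcript was 99.8% identical to Tgtp2 over 2811 bases and that of Gbp6 was 98.5% identical to Gbp10 over 1380 bases. Igtp and Irgm2 were 89.9% identical over 542 bases, and 162 annotated exon bases belong to both.

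The RefSeq promoter table (GRCm38.p6) matched 7 of the 9 genes, and the stretch that carries interferon-type motifs is shown for each because these letters are what the 7 promoters share. Capitals mark an ISRE core (GAAA, any 2 bases, GAAA, on either strand, so that it can read TTTC, 2 bases, TTTC) or a GAS element (TTCNNNGAA, the same on both strands), and each stretch runs 5′ to 3′ on the strand of its gene.
Irgm1, chr11:48871428-48871457, minus strand: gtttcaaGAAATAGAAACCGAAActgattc
Irgm2, chr11:58214887-58214936, plus strand: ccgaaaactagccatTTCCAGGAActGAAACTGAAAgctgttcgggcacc
Igtp, chr11:58199496-58199545, plus strand: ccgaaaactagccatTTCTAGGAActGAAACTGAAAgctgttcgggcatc
Tgtp1, chr11:48992300-48992349, minus strand: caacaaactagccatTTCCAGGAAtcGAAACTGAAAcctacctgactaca
Gbp2, chr3:142620594-142620623, plus strand: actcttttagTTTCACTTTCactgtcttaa
Gbp3, chr3:142559974-142560023, plus strand: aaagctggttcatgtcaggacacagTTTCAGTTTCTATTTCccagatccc
Gbp7, chr3:142530226-142530301, plus strand: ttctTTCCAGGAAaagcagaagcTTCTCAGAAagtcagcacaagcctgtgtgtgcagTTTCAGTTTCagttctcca

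An ISRE core stood in the 250 bases before the RefSeq start site of all 7 matched genes. It stood in 2.98% of the 32851 mouse promoters in the table, and in 3.46% of its 27025 genes. GENCODE exons of the same gene cover all 250 of these bases in Irgm1 and 61 of them in Gbp2. Of the 30 bases shown, 30 are exonic in Irgm1 and 22 in Gbp2. The RefSeq starts of Irgm2, Tgtp1 and Gbp3 also lie inside their annotated spans. Exons of the same gene cover 12 of the 250 bases in Tgtp1 and 18 in Gbp3, outside the stretches shown. A GAS element was found in 4 of the 7 (Gbp7, Igtp, Irgm2 and Tgtp1), against 7.02% of all promoters and 8.13% of all genes. Both motifs together stood in the same 4, against 0.332% of promoters and 0.4% of genes. In Gbp3 and Irgm1 a pair of ISRE cores overlap. Gbp3 has a second RefSeq start, whose promoter holds none. Igtp, Irgm2 and Tgtp1 share 1 layout, a GAS element followed after 2 bases by an ISRE core on the strand of the gene. That spacing was noticed in the sequences and then searched for. It occurs in 5 genes of the table, these 3 with Tgtp2 and Gm12185, and Gm12185 overlaps Tgtp1 with 223 shared exon bases. A match describes letters and is not a binding site, and the members were chosen as interferon-induced genes.

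**Figure D1:**
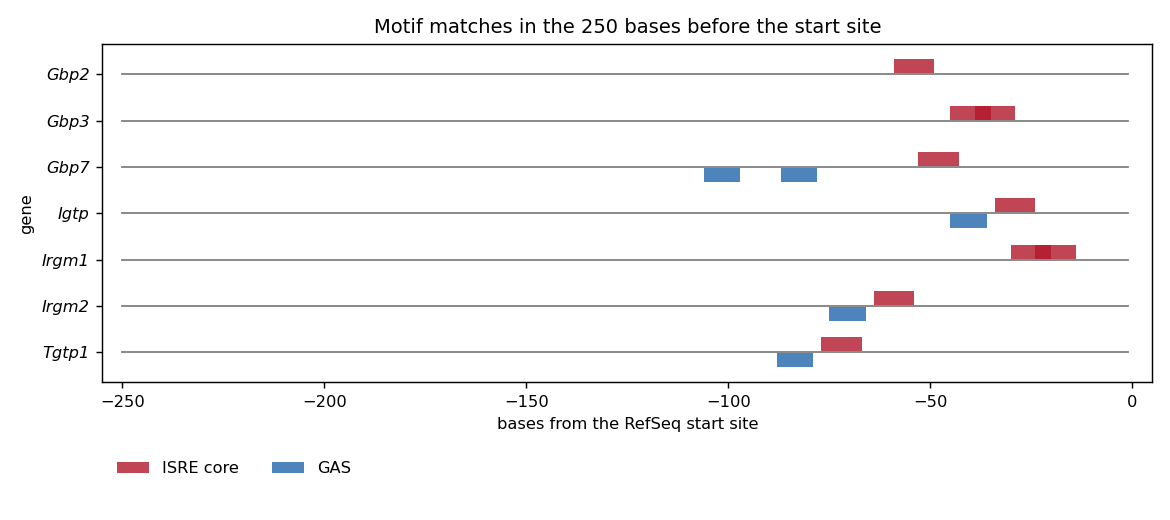
Positions of ISRE cores (red, above each line) and GAS elements (blue, below) in the 250 bases before the RefSeq start site of 7 genes, with the start site at 0 on the x axis and 1 gene per row. The ISRE cores of all 7 genes lie between -77 and -15, and the darker red marks the overlapping pairs in Gbp3 and Irgm1.

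Libraries held 14385218 to 27278251 counts, with a median of 22106062 in batch 1 and 17331641 in batch 2. Counts of a member in 1 library ran from 8 (Tgtp1) to 9682 (Iigp1), and Tgtp1, with a median of 51, was the most thinly covered. Prox1 itself had a mean of 174 CPM (counts scaled to library size, SD 13.0, n = 8) for fasted WT against 186 (SD 12.3, n = 7) for fasted K556R livers. The refed means over both batches went the other way, with WT at 164 (SD 22.7, n = 6) against K556R at 150 (SD 25.5, n = 8). That held in batch 2 (164 against 133) but not in batch 1 (164 against 166). Whole-gene counts do not show the allele. The labelled tissue was borne out by hepatocyte markers such as Alb and Apoa1, whose CPM summed to between 55116 and 103994 in every library. A pair of batch 1 libraries at the ends of marker sums of other cell types is called below the 2 that stood apart. Replicate 3 of fasted WT had the highest B cell and Kupffer cell sums (201 and 749 CPM), and replicate 4 of refed K556R had the lowest stellate and endothelial sums (196 and 139 CPM). Other libraries came near the latter, at 219 stellate (refed WT replicate 1, batch 2) and 151 endothelial (fasted WT replicate 3, batch 2). That refed WT library had the lowest B cell and cholangiocyte sums (4.91 and 42.5 CPM) and was not set aside. Counts of genes that passed are given with and without the pair from batch 1, while the correlations below include that pair.

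Per kilobase of exon the 9 genes differed widely in fasted WT livers. Iigp1 stood highest at 42.5 CPM per kb (SD 8.49, n = 8), followed by the regulators Igtp at 11.3 (SD 1.47), Irgm2 at 9.22 (SD 1.47) and Irgm1 at 7.04 (SD 0.809). Guanylate-binding proteins were lower, with Gbp3 at 3.35 (SD 0.328), Gbp2 at 3.29 (SD 0.892) and Gbp7 at 2.39 (SD 0.305). Gbp6 at 0.627 (SD 0.147) and Tgtp1 at 0.601 (SD 0.236) closed the order. Ranges over the 8 libraries overlapped between neighbours in this order except at 3 steps, from Iigp1 to Igtp, from Irgm1 to Gbp3 and from Gbp7 to Gbp6. These are whole livers, so fewer cells of a type and less RNA per cell cannot be told apart for any of the values below.

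**Figure D2:**
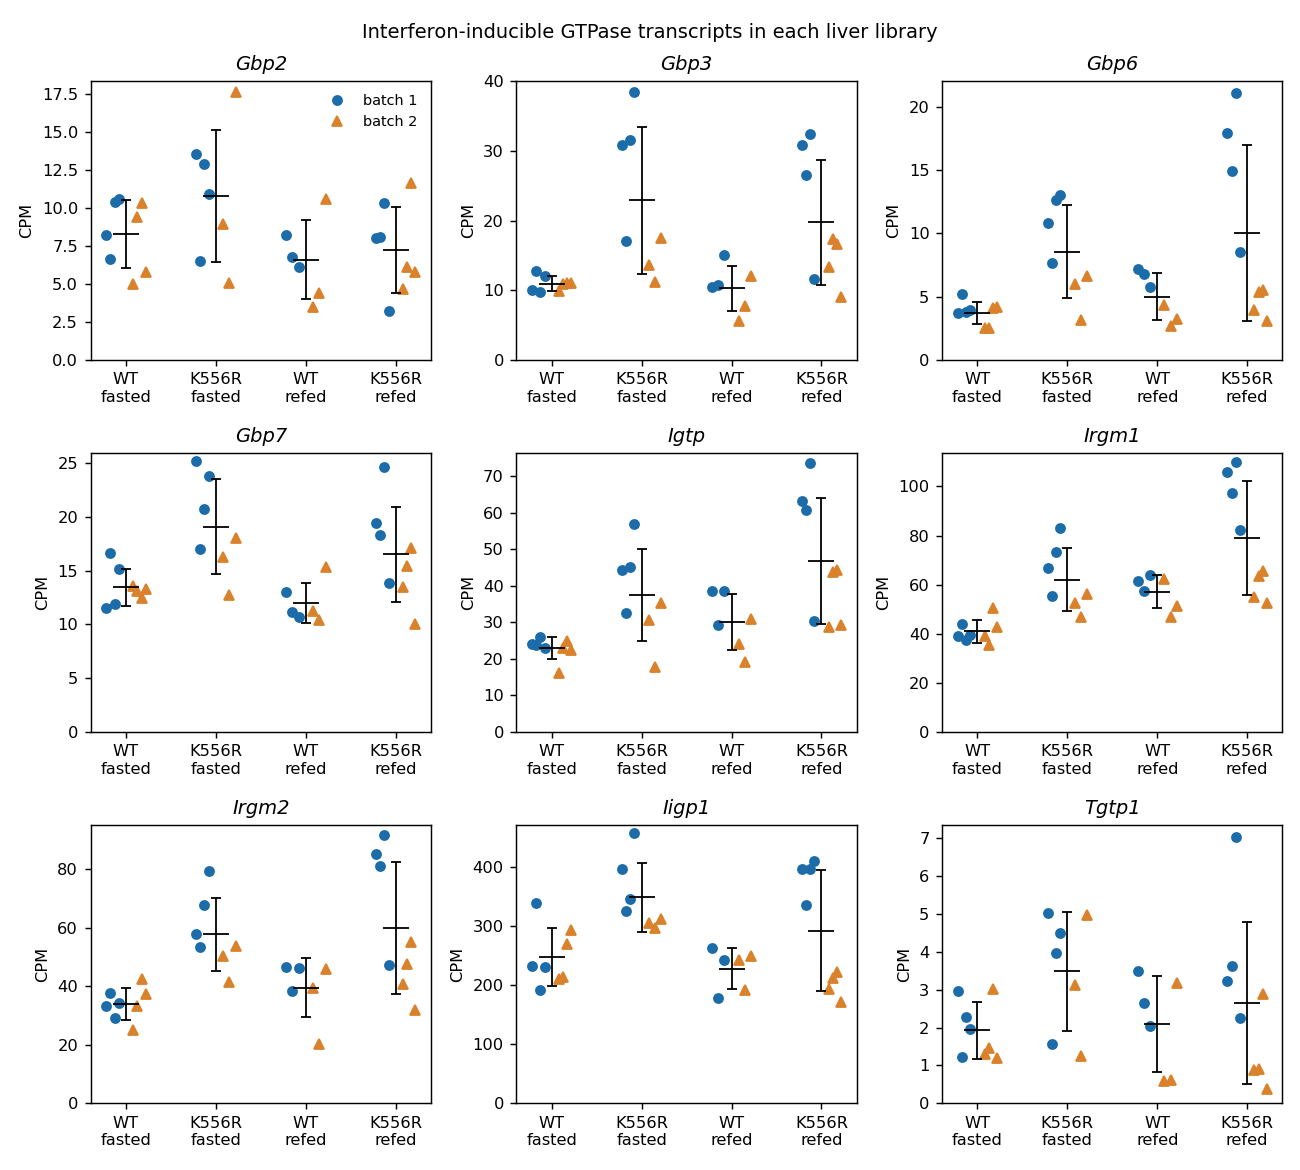
CPM of the 9 genes (y axis, linear, from 0) in each of the 29 libraries by group, with batch 1 as circles and batch 2 as triangles, and the bar and whiskers showing mean and SD over both batches. K556R libraries of batch 1 are the highest points for 8 genes, all but Gbp2, for example Gbp3 up to 38.4 and Irgm1 up to 110 CPM, while batch 2 triangles lie closer to WT.

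The genotype difference is described first and without a test, because the genes may have been selected on it. Among the regulators, Irgm1 in CPM ran from 35.3 to 50.3 (median 39.2) in fasted WT and from 46.9 to 83.0 (median 56.1) in fasted K556R livers. When refed it ran from 46.7 to 63.8 (median 59.4) in WT and from 52.5 to 110 (median 73.8) in K556R. Fasted groups overlapped through 1 WT library at 50.3 and 1 K556R library at 46.9, both of batch 2, and the fitted difference was log2 0.55 (SE 0.12) fasted and 0.44 (SE 0.12) refed. Irgm2 ran from 25.0 to 42.6 CPM (median 33.8) in fasted WT and from 41.6 to 79.2 (median 53.7) in fasted K556R livers, and from 20.2 to 46.7 (median 42.7) and 32.0 to 91.6 (median 51.3) when refed. Here too only 1 library of each fasted group crossed, and the differences were 0.71 (SE 0.17) and 0.57 (SE 0.18). Igtp, the third regulator, ran from 16.1 to 26.0 CPM (median 23.3) in fasted WT and 17.8 to 57.0 (median 35.1) in fasted K556R livers. Refed values were 19.2 to 38.4 (median 30) and 28.6 to 73.5 (median 44.0), with differences of 0.64 (SE 0.17) and 0.63 (SE 0.18). A single fasted K556R library of batch 2, at 17.8, lay inside the WT range.

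Of the effectors, Iigp1 (ENSMUSG00000054072, plus strand, chr18:60376027-60392634) had the highest counts of the 9 genes and Tgtp1 the lowest. Reads of Tgtp1 that also match Tgtp2 may be missing from its counts. Iigp1 in batch 1 read 232, 339, 192 and 231 CPM in fasted WT and 396, 326, 345 and 457 in fasted K556R livers. In refed livers of that batch it read 263, 179 and 242 in WT and 397, 336, 396 and 409 in K556R. The refed groups of batch 1 did not overlap, and 1 fasted WT library, at 339, reached into the K556R range. In batch 2 the fasted values were 210, 213, 270 and 293 in WT and 305, 297 and 312 in K556R, but the refed K556R values of 193, 212, 222 and 172 lay beside refed WT at 242, 191 and 250. Fitted over both batches, the difference was log2 0.45 (SE 0.15) fasted and 0.31 (SE 0.16) refed. Within batch 2 the refed difference was -0.19 (SE 0.13), with the opposite sign to batch 1 at 0.76 (SE 0.18). Tgtp1 ran from 1.21 to 3.02 CPM in fasted WT and 1.24 to 5.02 in fasted K556R livers, with medians of 1.71 and 3.96. Its differences of 0.79 (SE 0.40) fasted and 0.26 (SE 0.43) refed carried the largest errors of the 9. Summed with the near-identical Tgtp2, they were 0.68 (SE 0.29) and 0.57 (SE 0.31).

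Gbp3 and Gbp6 differed most among the guanylate-binding proteins, and Gbp2 least. Gbp3 in batch 1 read 9.76 to 12.8 CPM in fasted WT against 30.9, 17.0, 31.6 and 38.4 in fasted K556R livers. The refed livers of batch 1 read 10.4, 10.8 and 15.0 in WT against 30.9, 26.5, 32.4 and 11.6 in K556R. The value of 11.6 belongs to the refed K556R library that stood apart, and it alone lay among the WT values. Batch 2 gave 9.84, 10.9, 11.1 and 11.1 against 13.6, 11.2 and 17.5 fasted, and 5.56, 7.75 and 12.0 against 13.3, 17.4, 16.7 and 9.06 refed. The pooled difference was log2 0.94 (SE 0.21) fasted and 0.91 (SE 0.23) refed, close to a doubling (1.91-fold and 1.88-fold). Gbp6, of the chromosome 5 cluster, read 3.71, 5.17, 3.76 and 3.94 CPM in fasted WT of batch 1 against 10.8, 7.63, 12.6 and 13.0 in K556R, and 7.21, 6.77 and 5.76 against 17.9, 14.9, 21.1 and 8.53 when refed. Neither pair of groups overlapped in that batch. In batch 2 Gbp6 read 2.55, 2.49, 4.09 and 4.15 against 6.03, 3.15 and 6.66 fasted, and 4.33, 2.66 and 3.23 against 3.97, 5.36, 5.48 and 3.04 refed, with overlap in both states. Its pooled differences were 1.02 (SE 0.24) and 0.90 (SE 0.25), and part of its reads may belong to Gbp10 or to Gm43302, which shares 1726 of its exon bases.

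Gbp7 ran from 11.5 to 16.6 CPM (median 13.2) in fasted WT and 12.7 to 25.2 (median 18.0) in fasted K556R livers, and from 10.4 to 15.3 (median 11.2) and 10 to 24.6 (median 16.2) refed. The differences of log2 0.48 (SE 0.14) and 0.45 (SE 0.14) were smaller than those of its neighbour Gbp3. Gbp2 ran from 4.98 to 10.6 CPM (median 8.78) in fasted WT, 5.06 to 17.6 (median 10.9) in fasted K556R, 3.47 to 10.6 (median 6.44) in refed WT and 3.19 to 11.6 (median 7.05) in refed K556R livers. Its groups overlapped in every state and batch, and its differences were 0.37 (SE 0.26) and 0.13 (SE 0.28).

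All 9 genes had a positive pooled genotype difference in both feeding states, with a median of log2 0.64 fasted and 0.45 refed, where the median over all tested genes was 0 and -0.001. By edgeR at an adjusted p below 0.05, 0 of 9 passed when fasted, where 0.103% of all genes were called. Refed, 0 of 9 passed where 0% of all genes were called, with 1319 of 15603 at an unadjusted p below 0.05. DESeq2 called 5 members fasted and 1 refed. For the mean of both states 6 passed (Gbp3, Gbp6, Gbp7, Igtp, Irgm1 and Irgm2), beside 1.24% of all genes. These counts come from contrasts that may have chosen the genes and support nothing. Without the 2 libraries that stood apart the same 6 passed for the mean (1.61% of all genes), 0 passed fasted (0.0193%) and 1 passed refed (Gbp3, 0.193%).

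Split by batch, the difference was larger in batch 1. Fitted alone, batch 1 gave a median over the 9 genes of log2 0.84 fasted and 0.71 refed, and batch 2 gave 0.41 and 0.18. Every K556R library lay above every WT library for 6 genes in fasted batch 1 (all but Gbp2, Iigp1 and Tgtp1), where 2.44% of all tested genes did so. Refed batch 1 had 5 such genes (Gbp6, Gbp7, Irgm1, Irgm2 and Iigp1, beside 3.73%), fasted batch 2 had 2 (Gbp3 and Iigp1, beside 3.19%) and refed batch 2 had 0 (4.86%). By edgeR batch 1 alone called 4 of the 9 fasted (0.216% of all genes), 0 refed (0.0328%) and 7 for the mean (0.819%). Batch 2 alone called 0 of the 9 in each, where 0%, 0.0456% and 0% of all genes were called, with 983, 1968 and 1392 genes at an unadjusted p below 0.05.

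**Figure D3:**
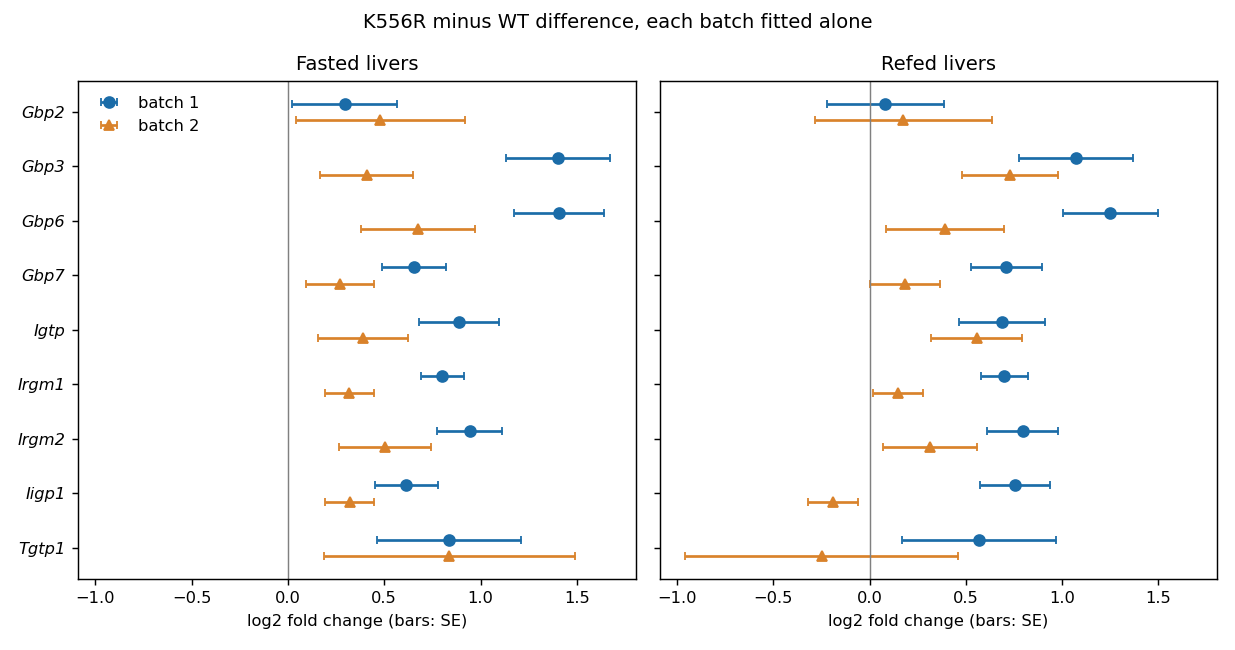
Log2 fold change of K556R against WT (x axis) with SE as bars for each gene, fitted in batch 1 (circles) and batch 2 (triangles) alone, in fasted (left) and refed (right) livers. Circles lie to the right of triangles for 7 of 9 genes in fasted livers, and refed Iigp1 stands on opposite sides of 0 at 0.76 and -0.19.

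The difference between the batches was also fitted, as the mean of the fasted and refed genotype differences in batch 1 minus the same in batch 2. It is built from the genotype differences that may have chosen the genes. For the members its values and p-values are therefore a description and support nothing. It was positive for 8 of 9 genes. Irgm1 had the smallest error, at log2 0.53 (SE 0.13, unadjusted p = 3.13e-04), and Iigp1 was next at 0.63 (SE 0.16, unadjusted p = 5.52e-04). Neither passed after adjustment over all genes (adjusted p = 0.343 for both, edgeR quasi-likelihood with Benjamini-Hochberg). Gbp6 gave 0.81 (SE 0.28) and Gbp3 0.68 (SE 0.29), whereas Gbp2 gave -0.13 (SE 0.40). The test called 0% of all genes, with 1358 at an unadjusted p below 0.05, and DESeq2 called 1 gene that is no member.

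Refeeding, which was treated as not used in choosing the genes, was tested within each genotype. Irgm1 passed the test after refeeding in both genotypes, and the other 8 genes did not pass in either. Whether Irgm1 differed from the others in this was not tested. In fasted WT livers of batch 1 it read 39.1, 44.0, 37.3 and 39.3 CPM, and after refeeding 61.5, 57.2 and 63.8. In batch 2 the fasted WT values were 39.1, 35.3, 50.3 and 42.6 and the refed ones 62.1, 46.7 and 51.3. The refed livers of batch 1 stood clear of the fasted ones, while in batch 2 a fasted library at 50.3 exceeded a refed one at 46.7. Over both batches the rise in WT was log2 0.47 (SE 0.12, 1.38-fold, adjusted p = 0.0104, edgeR quasi-likelihood), and it passed in all 29 fits that left out 1 library. Across all genes 10.7% were called in WT, so 1 call among 9 is near that share.

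K556R livers started from a higher Irgm1 level. Fasted values were 66.9, 55.4, 73.3 and 83.0 CPM in batch 1 and 52.3, 46.9 and 56.1 in batch 2, and refed values 106, 97.4, 110 and 82.1 in batch 1 and 54.9, 63.3, 65.5 and 52.5 in batch 2. In batch 1 a single pair crossed, the fasted library at 83.0 and the refed one at 82.1 that stood apart, and in batch 2 the ranges overlapped. The rise was log2 0.36 (SE 0.12, 1.28-fold, adjusted p = 0.0354, edgeR), beside 15.4% of all genes called, so here too 1 call among 9 is no more than that share. Leaving out 1 library gave an adjusted p between 0.0156 and 0.0863 by edgeR, and the gene passed in 22 of 29 such fits. The libraries whose absence ended the call were fasted K556R replicates 1 and 2 of batch 1, fasted K556R replicates 1 and 2 of batch 2, and refed K556R replicates 1, 2 and 3 of batch 1. Without a batch term the adjusted p was 0.116, and with the replicate number as a block it was 0.0542 by edgeR. Fitted alone, batch 1 gave rises of 0.62 in WT (SE 0.12, adjusted p = 0.00551, edgeR) and 0.52 in K556R (SE 0.11, adjusted p = 0.00683), where 5.54% and 9.81% of all genes were called. Batch 2 gave 0.34 (SE 0.13, adjusted p = 0.151) and 0.17 (SE 0.13, adjusted p = 0.415), which did not pass beside 3.85% and 12.5% of all genes called.

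The other regulators did not pass. Igtp gave log2 0.37 after refeeding in WT (SE 0.18, unadjusted p = 0.0446, adjusted p = 0.203, edgeR) and 0.35 in K556R livers (SE 0.17, unadjusted p = 0.0437, adjusted p = 0.164), where Irgm1 gave 0.36. Without the 2 libraries that stood apart, Igtp passed in K556R beside Irgm1, where 16.8% of all genes did, and in WT Irgm1 remained the only member to pass (12.3%). Irgm2, whose span overlaps Igtp, gave 0.19 in WT (SE 0.18) and 0.06 in K556R (SE 0.17). In WT livers of batch 1, every refed library exceeded every fasted one for Gbp6, Igtp, Irgm1 and Irgm2, as for 7.77% of all genes. No member did so in batch 2 (7.09%), nor in K556R livers of batch 1 (7.99%) or batch 2 (13.6%).

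Iigp1 after refeeding gave unlike values in the batches. In K556R livers of batch 2 it went from 305, 297 and 312 CPM fasted to 193, 212, 222 and 172 refed, without overlap, as did 14.5% of all genes. Fitted in that batch alone it fell by 0.63 on the log2 scale (SE 0.13, adjusted p = 0.0058, edgeR), beside that 12.5%. In K556R livers of batch 1 the refed minus fasted difference was 0.03 (SE 0.16, adjusted p = 0.952). A test of the difference between the batches, added after these values were seen, gave 0.62 (SE 0.22, unadjusted p = 0.00888) and an adjusted p of 0.110 by edgeR, and 3.54% of all genes passed it. WT livers gave -0.12 in each batch (SE 0.18 and 0.13). Pooled over batches, Iigp1 gave -0.12 in WT (SE 0.15, adjusted p = 0.706) and -0.27 in K556R (SE 0.15, adjusted p = 0.244). Tgtp1, the other effector, gave 0.07 in WT (SE 0.43) and -0.47 in K556R (SE 0.39), with errors too wide to place a direction.

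Guanylate-binding proteins did not pass in either genotype. Gbp2 had the lowest values, at log2 -0.33 in WT (SE 0.28, adjusted p = 0.536, edgeR) and -0.57 in K556R (SE 0.26, adjusted p = 0.150). Gbp3 gave -0.13 and -0.16, and Gbp7 -0.17 and -0.20, while Gbp6 gave 0.32 and 0.20. The refeeding values of the 9 genes thus spread on both sides of 0, with a median of 0.07 in WT and -0.16 in K556R livers, against 0.001 and 0.009 over all genes.

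**Figure D4:**
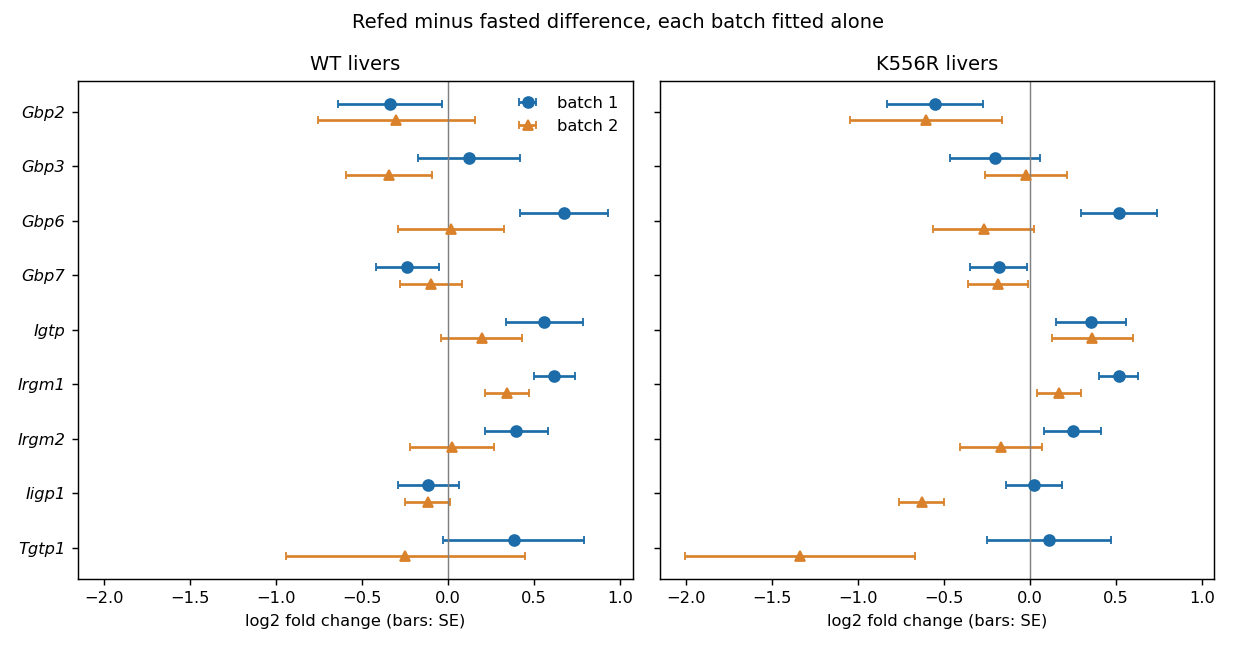
Log2 fold change of refed against fasted livers (x axis) with SE as bars for each gene, fitted in batch 1 (circles) and batch 2 (triangles) alone, in WT (left) and K556R (right) livers. Irgm1 and Igtp lie above 0 in all 4 fits, Irgm1 between 0.17 and 0.62, and Iigp1 of K556R livers stands at 0.03 in batch 1 and -0.63 in batch 2.

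No gene of the table passed a test of whether refeeding acted differently in the genotypes (0% called, 440 at an unadjusted p below 0.05, and 0 by DESeq2). For the 9 genes the interaction lay between log2 -0.54 for Tgtp1 (SE 0.58) and -0.02 for Igtp (SE 0.24), with an adjusted p of 1 each in edgeR. For Irgm1 it was -0.11 (SE 0.17), so the rises of 0.47 and 0.36 were not shown to differ.

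Within a group and batch the genes varied together. Pearson's r of log2 CPM, taken after subtracting the mean of each group and batch, was positive for all 36 pairs over the 29 libraries, with a median of 0.653. Of the 36, 32 passed at an adjusted p below 0.05 by permutation within group and batch. Pairs of other genes were not tested in this way. The count therefore cannot show whether these genes vary together more than other genes of the same livers. Gbp6 and Irgm1, on different chromosomes, gave the highest value (r = 0.867, permutation p = 1e-05, adjusted p = 1.44e-04). Spearman's rho was 0.885 (permutation p = 1e-05, adjusted p = 1.20e-04), where 1e-05 is the smallest that these permutations can give. Without the 2 libraries farthest from the median of Gbp6, r was 0.868, and it was 0.864 in batch 1 and 0.871 in batch 2. In each pair the farthest 2 are picked on 1 of its genes and need not be the libraries that stood apart. Gbp2 and Tgtp1, both weakly expressed, followed at 0.851 (permutation p = 1e-05, adjusted p = 1.44e-04) with a rho of 0.833 (permutation p = 1e-05, adjusted p = 1.20e-04), 0.837 without the farthest 2, and 0.805 and 0.877 in the batches. Igtp and Irgm2 gave 0.839 (permutation p = 2e-05, adjusted p = 1.44e-04) with a rho of 0.819 (permutation p = 2e-05, adjusted p = 1.80e-04), 0.818 without the farthest 2, and 0.904 and 0.803 in the batches. The shared exon bases and close sequence of that pair move with its correlation, and their part was not tested.

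Over both batches together Iigp1 was the least tied to the rest, which did not hold in batch 2. There its r reached 0.864 with Irgm2, while Gbp3 with Irgm1 gave 0.214. With Gbp2 it gave an r of 0.080 (permutation p = 0.656, adjusted p = 0.656) and a rho of 0.100 (permutation p = 0.622, adjusted p = 0.622), with 0.079 without the farthest 2, -0.149 in batch 1 and 0.338 in batch 2. With Tgtp1, the other effector, it gave 0.242 (permutation p = 0.205, adjusted p = 0.211) and a rho of 0.253 (permutation p = 0.223, adjusted p = 0.229), with 0.425 without the farthest 2, -0.028 in batch 1 and 0.530 in batch 2. Its highest r was with Irgm1 at 0.613 (permutation p = 8.50e-04, adjusted p = 0.00198), with 0.585 without the farthest 2, and 0.535 and 0.750 in the batches. The rho with Irgm1 was 0.643 (permutation p = 9.30e-04, adjusted p = 0.00258). Irgm2 gave a lower r of 0.579 (adjusted p = 0.00198 by permutation) but a higher rho of 0.705 (adjusted p = 0.00101 by permutation). Without the farthest 2, r of Iigp1 with Irgm2 was 0.681, and it was 0.376 in batch 1. Other pairs that did not pass were Gbp3 with Iigp1 at 0.338 (adjusted p = 0.0626 by permutation) and Gbp2 with Irgm1 at 0.416 (adjusted p = 0.0663 by permutation).

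**Figure D5:**
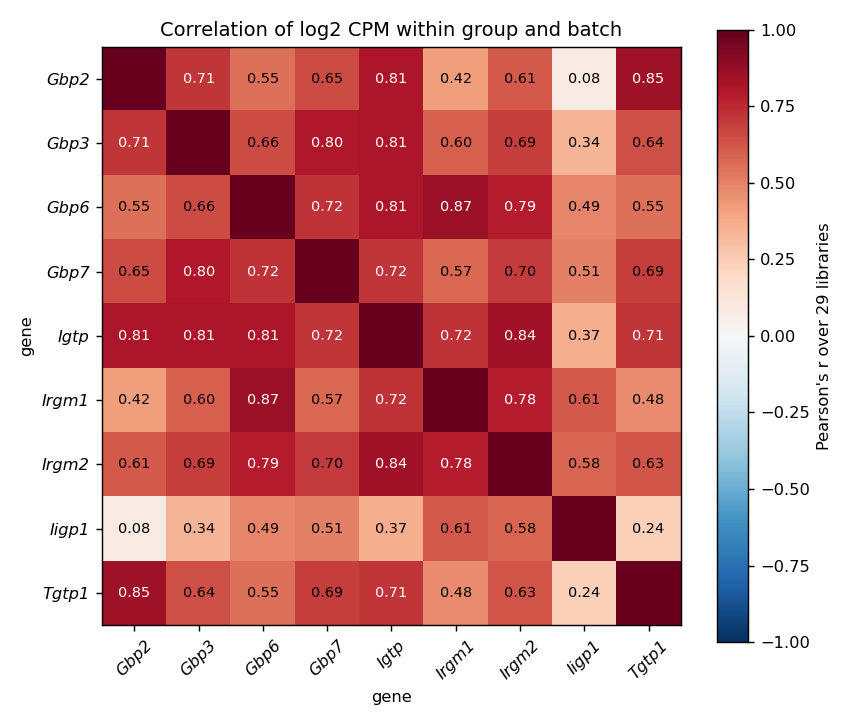
Pearson's r between log2 CPM of each pair of the 9 genes over 29 libraries after subtracting the mean of each group and batch, on a color scale from -1 to 1. All off-diagonal values are positive, from 0.08 (Gbp2 and Iigp1) to 0.87 (Gbp6 and Irgm1), and the Iigp1 row is the palest.

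Genes other than the 9 whose profile over the 29 libraries was most like the mean of the 9, after removing batch means and among 10978 genes, are known from interferon responses. Parp14, an ADP-ribosyltransferase, came first (r = 0.919), then Ifih1, which encodes the RNA sensor MDA5 (0.888), the nucleic acid sensor Zbp1 (0.873) and Ifi44 (0.863). Ifit1, an RNA-binding antiviral protein, gave 0.855, the RNA editor Adar 0.854, Xaf1 0.853 and Rtp4 0.851. The genotype difference is part of these values. After subtracting group and batch means they stood between 0.700 for Xaf1 and 0.849 for Parp14. These are descriptions over libraries that share groups and depth.

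Related genes and the interferon pathway are given for the mean genotype difference, again as a description, beside 1.24% of all genes called. Of 17 other listed members of both GTPase families 16 were tested and 2 passed higher, Gbp10 at log2 0.98 (SE 0.23) and Gbp9 at 0.46 (SE 0.12). All 16 were positive with a median of 0.35, including Tgtp2 at 0.71 (SE 0.19) and Ifi47 at 0.41 (SE 0.12), which did not pass. Among 5 tested Mx and very large inducible GTPases, Mx2 at 0.81 (SE 0.16) and Mx1 at 0.84 (SE 0.22) passed. In type I and III signalling 5 of 14 passed higher (Irf7, Irf9, Ddx58, Ifih1 and Stat2), led by Irf7 at 0.87 (SE 0.13) and Irf9 at 0.48 (SE 0.08). Target genes classed as mostly type I induced passed in 12 of 12 cases, with a median of 0.81. They are Usp18 at 1.16 (SE 0.17), Rtp4 at 0.86 (SE 0.13), Ifi44 at 1.29 (SE 0.22) and Ifit1 at 1.12 (SE 0.19), with Ifit2, Ifit3, Isg15, Oas1a, Oas2, Oasl1, Rsad2 and Cmpk2 between 0.56 and 0.89. Those classed as mostly interferon gamma induced passed in 0 of 12 (edgeR), with a median of 0.20, all 12 positive, and the values nearest to passing were Nlrc5 at 0.25 (SE 0.07) and Cd274 at 0.56 (SE 0.15). The classes were drawn from general knowledge, but the lists were written with earlier results of these data known. Many genes respond to both interferons, so the contrast between the classes is a description only.

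The conjugation genes that load the GTPases onto vacuoles went the other way where they passed. Of 10, Gabarapl1 was lower at log2 -0.23 (SE 0.05) and Map1lc3b at -0.20 (SE 0.05) in K556R livers, and 0 passed higher. Of 8 inflammasome genes acting downstream of guanylate-binding proteins 0 passed, and Casp1 came nearest at 0.47 (SE 0.13).

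After refeeding 0 to 3 genes of each of these lists passed, where 10.7% of all genes did in WT and 15.4% in K556R livers, so counts of this size in lists of 5 to 16 genes are read as values of single genes. Irgq, a relative of the immunity-related GTPases, rose by log2 0.38 in WT (SE 0.08, adjusted p = 0.00266, edgeR) and 0.32 in K556R livers (SE 0.08, adjusted p = 0.00548), the only 1 of 16 other family members to pass in either. Ifngr2, a chain of the interferon gamma receptor, fell by 0.37 (SE 0.08, adjusted p = 0.00222) and 0.49 (SE 0.08, adjusted p = 2.42e-05). Ifnar2, a chain of the type I receptor, fell by 0.25 in K556R (SE 0.07, adjusted p = 0.0119), and in WT its value of -0.21 did not pass (adjusted p = 0.0655). Socs3, an inhibitor of cytokine receptors, fell by 0.76 in K556R (SE 0.26, adjusted p = 0.0491). The chemokine gene Cxcl10 rose by 0.85 in WT (SE 0.26, adjusted p = 0.0347), and Nlrc5, an activator of MHC class I genes, fell by 0.30 in K556R (SE 0.09, adjusted p = 0.0238). Oasl1 rose in WT by 0.50 (SE 0.17, adjusted p = 0.0495) and in K556R by 0.70 (SE 0.16, adjusted p = 0.00227). Gabarapl1 fell by 0.50 in WT (SE 0.08, adjusted p = 5.47e-05) and 0.82 in K556R (SE 0.07, adjusted p = 2.27e-09), and Map1lc3b by 0.51 (SE 0.07, adjusted p = 8.26e-06) and 0.69 (SE 0.07, adjusted p = 7.96e-09). Map1lc3a, of the same 10 conjugation genes, fell by 0.25 in K556R (SE 0.08, adjusted p = 0.0411), and its value of -0.14 in WT did not pass (adjusted p = 0.358).

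Immune cells express these GTPases too, so their markers are given beside the members. The summed CPM of 12 T and NK cell markers ran from 3.62 to 14.8 (median 5.78) in fasted WT, 5.45 to 13.4 (median 8.70) in fasted K556R, 5.02 to 8.30 (median 6.91) in refed WT and 4.86 to 14.8 (median 7.63) in refed K556R livers. No marker was at 0 in all libraries. Of the 9 that could be tested 0 passed in the mean genotype difference, 7 were positive and the median was log2 0.40. The genotype difference in batch 1 minus that in batch 2 had a median of -1.10 over these 9 markers and 0.47 over the 9 GTPases. Of the markers 2 were positive and 0 passed, where 0% of all genes did. Fasted WT replicate 3, which stood apart, had the highest sum of these 9 markers in batch 1 (14.2 CPM). Marker values without that library are not given. Kupffer cell and macrophage markers summed to 203 to 749 CPM (median 333), 195 to 617 (median 411), 225 to 409 (median 343) and 289 to 507 (median 397) in the same order of groups. All 11 were positive in the mean genotype difference with a median of 0.17, and 0 passed, and their batch difference had a median of -0.35. Other immune lists differed in the mean genotype difference, and 0 of their genes passed. The median was -0.25 for B cells (1 of 5 positive), 0.27 for dendritic cells (5 of 5) and 0.18 for neutrophils (3 of 3). Their batch differences had medians of -0.74, 0.004 and -0.68 in that order.

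Of 18 relations between a member and the mean log2 CPM of either marker list, within group and batch, 1 passed. Gbp2 went with the T and NK cell markers at r = 0.594 (permutation p = 0.00129, adjusted p = 0.0232). Spearman's rho was 0.591 (permutation p = 0.00311, adjusted p = 0.0560), r was 0.561 without the 2 farthest libraries, and it was 0.557 in batch 1 and 0.647 in batch 2. Tgtp1 gave 0.512 and Igtp 0.469 (adjusted p = 0.0906 for both, by permutation), whereas Irgm1 gave 0.139 (adjusted p = 0.740) and Gbp6 0.176 (adjusted p = 0.677). Iigp1 gave -0.346 (adjusted p = 0.500 by permutation), with -0.588 in batch 1 and 0.036 in batch 2. With Kupffer cell markers the 9 values of r lay between -0.052 for Iigp1 and 0.282 for Gbp7. The part of these cells in the genotype difference was not tested.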

How the data were processed

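Poly-A RNA of 29 liver libraries was sequenced. The authors deposited unnormalised gene counts. Per the submitters' processing notes the build was mm10, and the tools listed are HTSeq, STAR, STAR-Fusion, TopHat, edgeR and DESeq2, with no role given. The annotation release, strand setting and handling of multiply mapped reads are not given in the sources used here, so paralogs and overlapping genes are uncertain. Positions, exon lengths and transcripts come from GENCODE M21, which matched 54495 of 54532 identifiers.

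The filterByExpr step of edgeR, with a count of at least 10 and a total of at least 15, left 15603 genes. A quasi-likelihood model after TMM scaling had 1 coefficient per group and a batch term. A second model had 1 coefficient per group and batch and gave the differences between batches. Each SE was derived from the test, as the absolute log2 fold change divided by the square root of its F statistic. The call threshold was 0.05 on p-values adjusted by Benjamini-Hochberg over every tested gene. CPM use TMM-scaled library sizes, with a prior count of 2 on the log2 scale. Correlations used 100000 permutations of libraries within group and batch. Transcripts were compared with BLAST 2.17.0. The fits were tested on simulated data. Intervals and errors do not cover PCR copies.

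The members and lists were chosen with earlier results of these data known. In each contrast the 9 members are named, and from each list up to 4 genes by the smallest p. The 8 genes most like the members had a mean log2 CPM of at least 1. Genes of the interferon and related lists that passed beyond those 4 are named as well, chosen after their values were seen. The genotype result of 1 list is not reported here. No library was left out. All 92 pairs of libraries within a group differed by more than counting error, with a chi-square of 11.0 to 167 for each degree of freedom. Alternatives were RLE scaling, DESeq2, no filter, a replicate block, no batch term, each batch alone and leaving out each library. Leaving out the 2 libraries that stood apart, summing Tgtp1 with Tgtp2 and the batch test of refeeding were added after seeing the data. Software was R 4.3.3, edgeR 4.0.16, limma 3.58.1, DESeq2 1.42.0, Python 3.11.15 and matplotlib 3.10.9.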

Additional observations from a re-analysis of the deposited data

Results flagged for a closer look

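Among 36 sets of values (9 genes in 4 groups), a single library lay far below its group in 2, by a gap rule that marks about 1 in 20 sets by chance. Igtp in fasted WT replicate 1 of batch 2 had a log2 CPM of 4.015, where the nearest of the other 7 libraries stood at 4.483 and their median at 4.569, a gap of 0.677 of the whole range. Irgm2 in refed WT replicate 2 of batch 2 had 4.345, where the nearest of the other 5 stood at 5.272 and their median at 5.525, a gap of 0.770 of the range.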

How the results depend on the processing

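Tgtp1 had the lowest counts, from which reads that also match Tgtp2 may be missing. The call counts of the genotype contrasts move with the tool and the batch. The number of the 9 genes that passed in edgeR when fasted was 0, and it was 1 with RLE scaling, 5 with DESeq2, 4 without the filter on low counts, 4 in batch 1 alone and 0 to 4 with 1 library left out. Refed, the count of 0 became 1 with DESeq2 and 1 without the 2 libraries that stood apart, and ran from 0 to 1 with 1 library left out. For the mean of both states the 6 became 0 in batch 2 alone, and 6 to 7 passed with 1 library left out. Refeeding in WT kept a count of 1 except in batch 2 alone, where it was 0. Refeeding in K556R gave 1, and 0 without a batch term, 2 without the 2 libraries, and 0 to 2 with 1 library left out. The interaction and both differences between batches called 0 members under each alternative run. In these sentences the cause was not tested, and a fit within 1 batch also has fewer libraries.

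Over all genes, the 16 calls when fasted became 89 with DESeq2, 45 without the filter, 33 in batch 1 alone, 0 in batch 2 alone, 2 without a batch term and 3 without the 2 libraries. Refed, 0 became 45, 10, 5, 7, 0 and 30 in the same order. The mean's 194 became 425 with DESeq2, 125 in batch 1, 0 in batch 2 and 98 without a batch term. Refeeding called 1667 genes in WT (846 in batch 1, 592 in batch 2) and 2397 in K556R (1497 in batch 1). The added batch test of refeeding called 552, and 947 with DESeq2 and 228 without the 2 libraries.

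Whether repeat numbers pair libraries is not stated in the labels and was not tested. The deviations of 40 pairs that share a number and batch correlated at -0.387 to 0.360 (median -0.029). For 117 other pairs of the same batch the range was -0.336 to 0.391 (median -0.006). With the replicate block, refeeding in K556R called 0 members (Irgm1 log2 0.37, adjusted p = 0.0542, edgeR), and the counts of members were otherwise those without the block. Over all genes the block gave 2 calls fasted, 92 for the mean and 306 in the added batch test. Signs turned under the block for Tgtp1 after refeeding in WT (-0.14) and in the interaction for Gbp3 (0.061), Gbp7 (0.048) and Igtp (0.021).

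No value that had passed turned its sign. Values that had not passed did so in batch 1 alone for refeeding of Gbp3 in WT (0.12), of Iigp1 (0.025) and Tgtp1 (0.11) in K556R, and for the interaction of Gbp7 (0.057) and Iigp1 (0.14). In batch 2 alone they turned for the refed genotype difference of Iigp1 (-0.19) and Tgtp1 (-0.25), refeeding of Tgtp1 in WT (-0.25), of Gbp6 (-0.27) and Irgm2 (-0.17) in K556R, and the interaction of Gbp3 (0.32) and Igtp (0.17). Without the 2 libraries the interaction turned for Gbp3 (0.16), Gbp6 (0.026), Gbp7 (0.067) and Igtp (0.094), and the batch difference for Gbp2 (0.034). Tgtp1 summed with Tgtp2 gave -0.025 for refeeding in WT. With 1 library left out, these values spanned 0: Gbp2 (-0.018 to 0.36) and Tgtp1 (-0.044 to 0.57) refed between genotypes, Tgtp1 after refeeding in WT (-0.26 to 0.30), Irgm2 after refeeding in K556R (-0.023 to 0.14), the interaction of Gbp3 (-0.12 to 0.13), Gbp7 (-0.12 to 0.093) and Igtp (-0.12 to 0.079), and the batch difference of Gbp2 (-0.46 to 0.16) and Tgtp1 (-0.24 to 0.83).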
